A study of Rattus norvegicus with 24 samples.

Results

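The comparison set the dorsal striatum of all rats that had self-administered methamphetamine (METH) against that of saline control (CT) rats, on 18 of the 24 arrays of the series. The METH rats were 12, chosen by their group labels alone: 6 shock-resistant (SR) rats, which kept pressing for the drug when presses were punished with footshock, and 6 shock-sensitive (SS) rats, which reduced their intake. The 6 CT rats pressed for saline and received no shock. The other 6 arrays came from saline rats that received shocks set by an SR rat (YSR, 3 rats) or an SS rat (YSS, 3 rats) whatever they did themselves. These yoked rats stayed out of the tests, and their values are given only beside the results. All rats were male Sprague Dawley rats whose age is not given in the sources used here, and the tissue was taken about a month after the last drug or shock session. The paper also describes lever-press tests with the drug cues but no drug, early and about a month into withdrawal. The rats were killed a day after the later cue test. Because every METH rat had also been shocked and no CT rat had, the drug and its punishment cannot be told apart in this comparison. The shock status of the yoked rats differed too, since their shocks did not depend on their own presses. Each array measured total RNA of bulk tissue from 1 rat on 68842 transcript clusters, the groups of probes that the array design assigns to 1 transcription unit. In bulk RNA, fewer cells of a type and less RNA per cell cannot be told apart.

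METH enters dopamine terminals through the dopamine transporter and releases dopamine into the striatum, a nucleus made largely of GABA-releasing medium spiny neurons that carry D1 or D2 dopamine receptors. Heavy exposure is known to damage dopamine terminals and to cause oxidative and endoplasmic reticulum stress, with a response of astrocytes. Long access to the drug followed by abstinence is used in rodents to model drug craving that lasts after intake has stopped.

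No single transcript cluster separated METH from CT rats once the number of clusters tested was taken into account. Of 68842 clusters, 0 (0%) had an adjusted p under 0.05 in limma's moderated test with Benjamini-Hochberg adjustment, and the smallest adjusted p was 0.233. At an unadjusted p under 0.05, 1116 clusters (1.62%) had the higher mean and 3166 (4.6%) the lower mean in METH rats. The criterion used in the study, an unadjusted p under 0.05 with at least a 1.7-fold difference, was met by 21 clusters (0.0305%), 12 higher and 9 lower. A cluster was called expressed when its CT mean exceeded that of bioB, a spiked-in bacterial control whose CT mean was 9.27 log2 units. Of the 9755 expressed clusters, 5 (0.0513%) met the criterion, 231 (2.37%) were higher and 107 (1.1%) lower at an unadjusted p under 0.05. All 12 METH values lay below all 6 CT values in 11 clusters (0.016%) and above them in 0 clusters (0%). In the plot of all clusters, Wfs1 lies past both limits on the right.

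**Figure D1:**
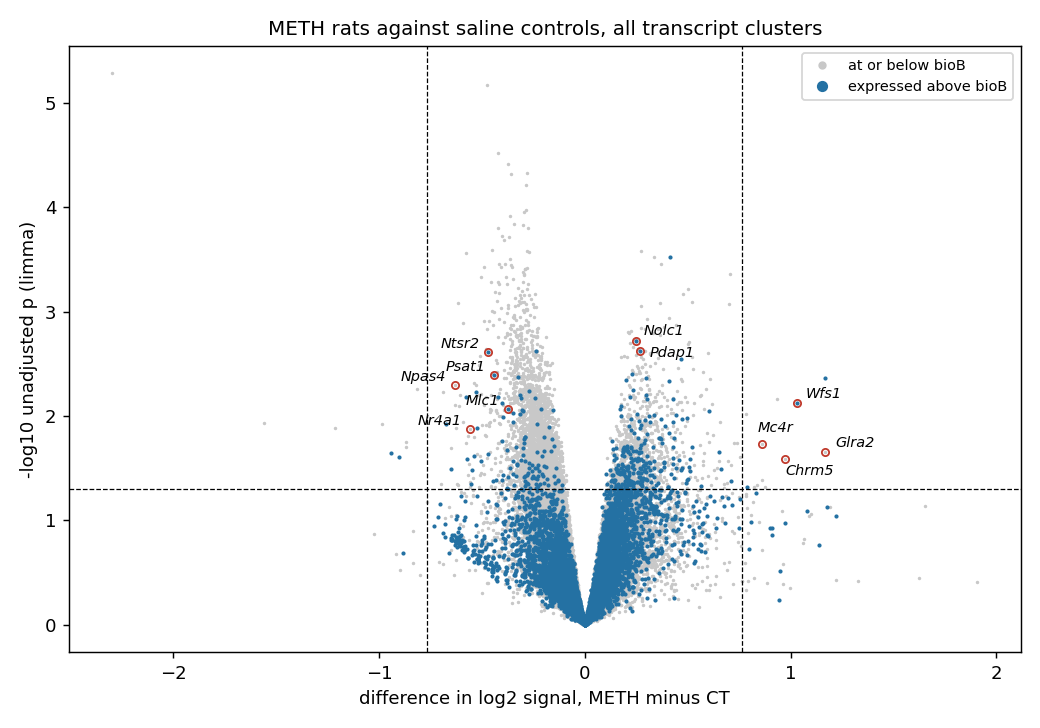
Difference in mean log2 signal between 12 METH and 6 CT rats (x axis) against the -log10 of the unadjusted p from limma (y axis), 1 point per transcript cluster, with blue for expressed clusters and grey for the others. Dashed lines mark the limits of the criterion on p and fold, red circles mark named genes, and the 21 clusters past both limits include Wfs1, Glra2, Chrm5 and Mc4r on the right.

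The direction of the weak differences varied with signal level, with the set of clusters counted and with scaling. Among the 59087 clusters at or below bioB, 885 were higher and 3059 lower in METH rats at an unadjusted p under 0.05, and 37.6% had the higher METH mean. Among the 9755 expressed clusters 48.2% had the higher METH mean, and among the 2808 clusters averaging at least 14 log2 units 31.4% did. Among the 4131 expressed genes, each taken by its brightest cluster, 66.5% had the higher METH mean, with 169 higher and 30 lower at that p. Array medians ran from 5.11 to 5.32 in CT rats and from 5.12 to 5.23 in METH rats. After each array was centred on its median over all clusters, the counts over all clusters became 2352 higher and 1563 lower, and those over expressed clusters 419 and 55. After quantile normalization they were 1736 higher and 2014 lower over all clusters, and 186 and 142 over expressed ones. The majority of expressed genes with the higher METH mean was kept under both, at 78.9% and 63.3%.

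Wfs1 encodes wolframin, a membrane protein of the endoplasmic reticulum that takes part in calcium handling and the unfolded protein response. Of the named expressed genes, it was the only one that met the criterion. Its cluster lies on chromosome 14 from 78640707 to 78665966 on the plus strand in the deposited annotation, which names no genome build. In CT rats its log2 signal ran from 10.57 through a median of 11.76 to 12.57, and in METH rats from 11.15 through 12.82 to 14.25. The ranges overlapped, but 8 of 12 METH rats lay above every CT rat. The METH mean was 1.03 ± 0.35 (SE) log2 units higher, a 2.05-fold difference with a 95% interval from 0.31 to 1.76 log2 units (exact permutation p = 0.0158, 2-sided; limma adjusted p = 0.754). The difference from CT was 1.20 in SR rats and 0.86 in SS rats, and SR and SS did not differ beyond their spread (difference 0.34 ± 0.40 SE, limma adjusted p = 1). Yoked rats ran from 11.42 through a median of 12.96 to 13.88. Wfs1 met the criterion in all 30 other settings that gave it a value, with differences from 0.81 to 1.21.

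The start of the Wfs1 gene is shown because Wfs1 was the only named expressed gene at the criterion. The RefSeq GRCr8 promoter table gives it as chr14:78034955-78035254 on the plus strand, 250 bases before to 50 after the annotated start, with capitals for the CCAAT box (CCAAT, searched on both strands).
Wfs1: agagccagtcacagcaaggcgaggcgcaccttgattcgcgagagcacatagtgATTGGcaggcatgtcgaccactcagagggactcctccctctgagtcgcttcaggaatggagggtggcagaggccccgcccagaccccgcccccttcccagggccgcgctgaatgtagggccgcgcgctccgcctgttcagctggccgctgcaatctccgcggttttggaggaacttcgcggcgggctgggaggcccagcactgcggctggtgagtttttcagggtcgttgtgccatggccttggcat
The window held 1 CCAAT box, on the reverse strand, and 37.5% of the 33469 promoters in that table held at least 1.

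Another expressed cluster at the criterion with the higher METH mean, TC0X00000301.rn.1, lies on the X chromosome from 30948066 to 30959574 on the plus strand, and the annotation describes it as a glycine-gated chloride channel without a gene name. It differed by 1.16 ± 0.36 (SE), with 7 METH rats above all CT rats (exact permutation p = 0.00921), and met the criterion in all 30 other settings. Yoked rats ran from 8.10 to 12.36 for it, with a mean above that of CT rats. The 2 expressed clusters at the criterion with the lower METH mean, TC0200001272.rn.1 and TC1900000060.rn.1, carry no gene name and were lower by 0.94 ± 0.38 and 0.90 ± 0.37 (SE) log2 units. These 3 clusters fall outside the rule by which genes were named and were chosen after their values were seen.

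Among genes at or below bioB, 6 of those named met the criterion, and all 6 were higher in METH rats. They were Glra2 (1.17 ± 0.47 SE), the alpha 2 subunit of the glycine receptor; Chrm5 (0.97 ± 0.40), the M5 muscarinic receptor; Unc5d (0.88 ± 0.42), a netrin receptor; Mc4r (0.86 ± 0.34), the melanocortin 4 receptor; Gng2 (0.86 ± 0.39), a G protein gamma subunit; and Nr2f2 (0.82 ± 0.39), a nuclear receptor. The criterion was not met in 18 of 29 other settings by Unc5d, in 16 by Nr2f2, in 14 by Gng2, in 5 by Glra2, in 4 by Mc4r and in 3 by Chrm5. Glra2 ran from 6.90 to 9.82 in CT rats, from 7.82 to 10.85 in METH rats and from 6.80 to 10.71 in yoked rats. For each of these 6 genes the mean of the yoked rats, which had no drug, also lay above the CT mean. Only 3 METH rats lay above all CT rats for Glra2, and 4 for Chrm5, so the groups overlapped widely. Chrm5 was the 1 of the 31 clusters named in the expressed and low-signal groups at which SR and SS differed at an unadjusted p under 0.05. It lay 1.47 above CT in SR rats and 0.48 in SS rats (p of the difference 0.0293, limma, unadjusted), and over all clusters SR and SS differed at an adjusted p under 0.05 in 0 of 68842 (2935 at an unadjusted p under 0.05, smallest adjusted p 0.203). Below bioB the only named gene with a 1.7-fold lower mean was Pmch, the precursor of melanin-concentrating hormone, at -0.92 ± 0.70 (exact permutation p = 0.264). CT replicates 1 and 3 gave 10.20 and 7.77 for Pmch, whereas the other CT arrays lay between 3.92 and 4.22 and the METH arrays between 4.05 and 5.83. The Pmch difference was -0.02 without CT replicate 1 and -0.51 without CT replicate 3.

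These genes were high and low on the same arrays. SR replicate 5 gave the highest METH value of Wfs1, TC0X00000301.rn.1, Glra2, Chrm5, Mc4r, Gng2, Nr2f2 and Unc5d. SR replicate 1 gave the lowest METH value for 5 of these 8, and SS replicate 4 for Chrm5, Nr2f2 and Unc5d. CT replicate 1 was the highest CT array for 6 of them, and CT replicate 3 for Mc4r and Nr2f2. Among yoked rats, YSR replicate 1 gave 13.39 for Wfs1 and 10.71 for Glra2, whereas YSR replicate 2 gave 11.48 and 6.80 and YSR replicate 3 gave 11.42 and 7.14. The spread within each group was therefore shared by these genes.

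**Figure D2:**
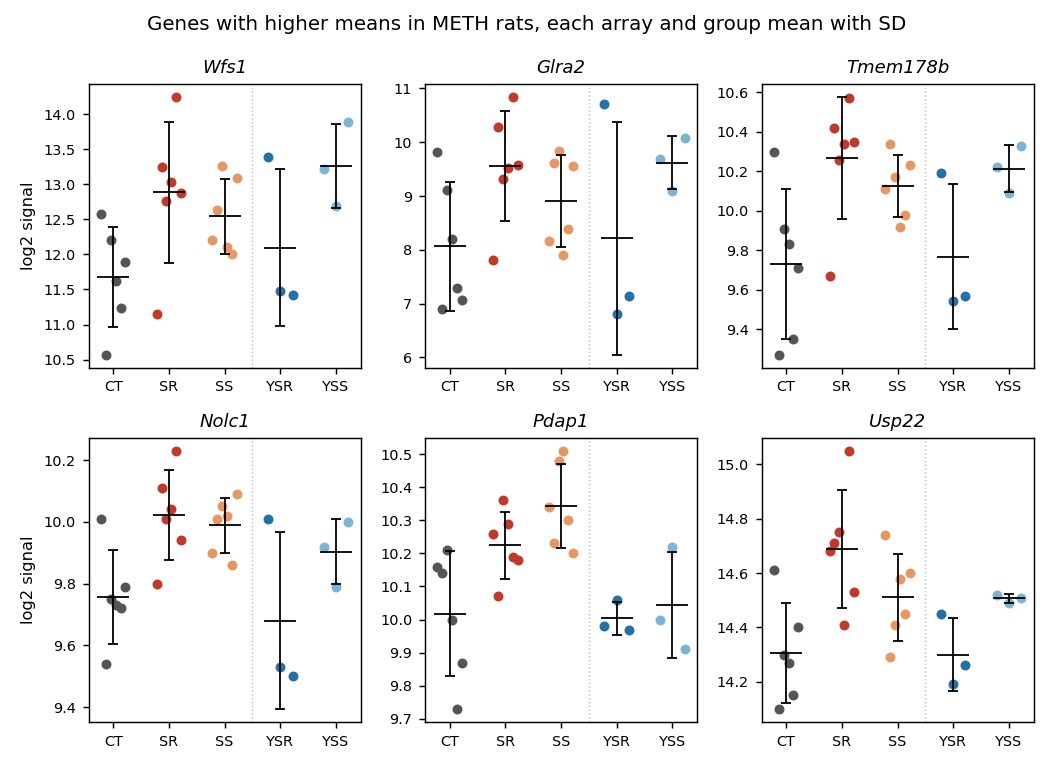
Log2 signal of 6 genes with the higher mean in METH rats (y axes) on each array of the CT, SR, SS, YSR and YSS groups (x axes), 1 dot per rat in replicate order, with the group mean and SD as the line and bars. SR replicate 1, the first dot of SR, is the lowest METH value of Wfs1, Glra2, Tmem178b and Nolc1, and CT replicate 1 is the highest CT value of all but Pdap1.

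Nolc1 and Pdap1 had the smallest p of the 12 named expressed clusters with the higher METH mean. Nolc1, a nucleolar phosphoprotein that chaperones small nucleolar RNPs, ran from 9.54 through 9.74 to 10.01 in CT rats and from 9.80 through 10.01 to 10.23 in METH rats. All 12 METH rats exceeded the CT mean, 6 exceeded every CT rat, and the difference was 0.25 ± 0.07 (SE) log2 units (exact permutation p = 0.00135; limma adjusted p = 0.754). Pdap1, a PDGF-associated protein, was 10.02 ± 0.19 (SD, n = 6) in CT and 10.28 ± 0.13 (SD, n = 12) in METH rats. Its difference was 0.27 ± 0.08 (SE), with 8 METH rats above all CT rats (exact permutation p = 0.00167). Both genes were named for their small p on these arrays, so the permutation p adds no separate support. The smallest adjusted p of any expressed cluster was 0.754 in limma. Ssb, the RNA-binding La protein, differed by 0.20 ± 0.06 (SE) and Gnl2, a nucleolar GTPase, by 0.17 ± 0.06 (SE). Gtf2f1, a subunit of the general transcription factor TFIIF, differed by 0.22 ± 0.07 (SE), and Usp22, the deubiquitinase of the SAGA complex, by 0.30 ± 0.10 (SE). Yoked rats differed from the same CT rats by 0.03 for Nolc1, 0.01 for Pdap1, 0.11 for Ssb, 0.11 for Gnl2, 0.06 for Gtf2f1 and 0.10 for Usp22.

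Chrnb2, Cdk5r1, Tmem178b and Cask belonged to the same 12 clusters. Chrnb2, the beta 2 subunit of nicotinic acetylcholine receptors, ran from 10.40 to 11.59 in CT rats and from 11.21 to 11.80 in METH rats. Every METH rat exceeded the CT mean of Chrnb2, by 0.43 ± 0.14 (SE) on average (exact permutation p = 0.00953). Cdk5r1, which encodes the p35 activator of the kinase Cdk5, differed by 0.30 ± 0.10 (SE), and Tmem178b by 0.47 ± 0.14 (SE). Cask, a scaffold of synaptic membranes, was named by 2 clusters on the X chromosome, at 0.30 ± 0.09 and 0.23 ± 0.08 (SE), each above the CT mean in all 12 METH rats. Yoked rats differed from the same CT rats by 0.15 for Chrnb2, 0.31 for Cdk5r1, 0.26 for Tmem178b, and 0.12 and 0.14 for the Cask clusters. Nolc1, Pdap1, Ssb, Usp22, Cdk5r1, Chrnb2 and Tmem178b kept an unadjusted p under 0.05 in all 30 other settings. Apart from Wfs1, the fold differences of the 12 clusters ran from 1.13 (Gnl2) to 1.38 (Tmem178b), under the 1.7-fold of the criterion.

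Ntsr2 and Psat1 had the smallest p of the 12 named expressed clusters with the lower METH mean. Ntsr2, a neurotensin receptor of astrocytes, ran from 13.86 through 14.01 to 14.44 in CT rats and from 13.20 through 13.48 to 14.19 in METH rats. On 9 of 12 METH arrays it was below every CT array, the exceptions being SR replicates 4 and 6 and SS replicate 4. Its difference was -0.47 ± 0.14 (SE), or 1.38-fold (exact permutation p = 0.00555; limma adjusted p = 0.754). Mlc1, a membrane protein of astrocyte endfeet, ran from 12.02 to 12.85 in CT and from 11.45 to 12.37 in METH rats, with 8 METH rats below all CT rats and a difference of -0.37 ± 0.13 (SE). Psat1, an enzyme of serine synthesis, was below the CT mean in all 12 METH rats, at -0.44 ± 0.14 (SE). Gstm5, a glutathione transferase, was named by 2 clusters at -0.40 ± 0.14 and -0.35 ± 0.12 (SE). Yoked rats differed from CT by -0.56 for Ntsr2, -0.43 for Psat1, -0.16 for Mlc1, and -0.17 and -0.13 for the Gstm5 clusters.

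**Figure D3:**
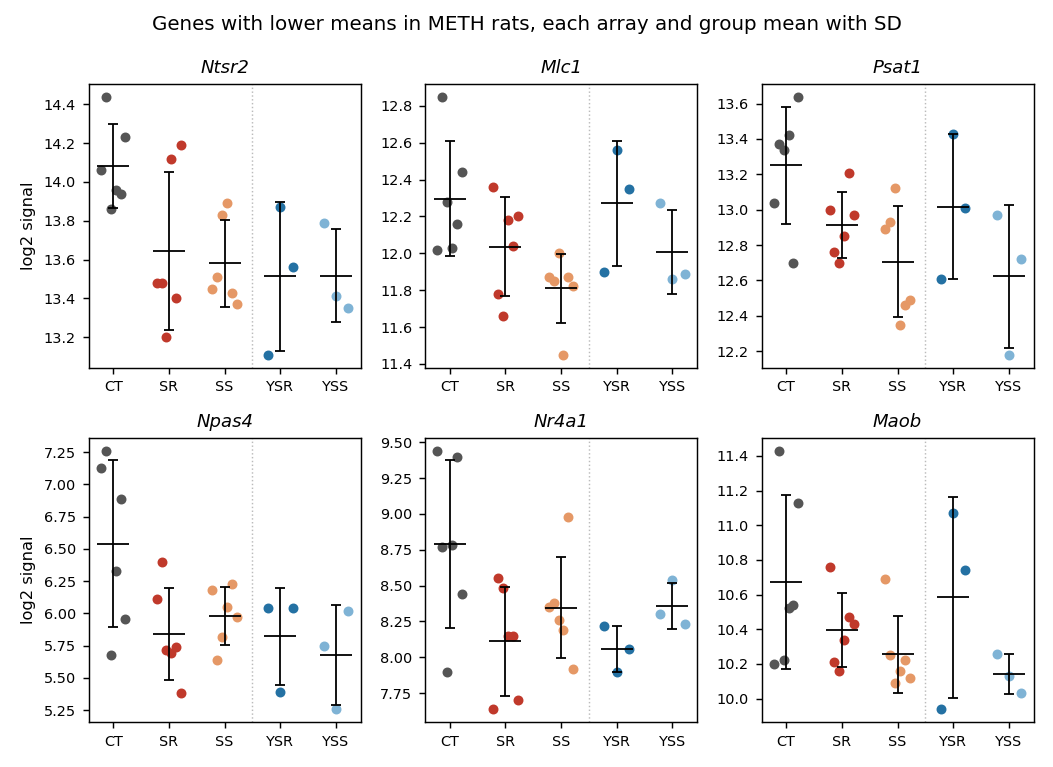
Log2 signal of 6 genes with the lower mean in METH rats (y axes) on each array of the 5 groups (x axes), 1 dot per rat in replicate order, with the group mean and SD as the line and bars. For Ntsr2 9 of 12 METH dots lie below every CT dot, and for Npas4 all 12 lie below the CT mean.

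Of the 12 astrocyte markers listed, 11 had the lower METH mean and 2 of them, Ntsr2 and Sox9, passed an unadjusted p under 0.05, with a median difference of -0.10 against -0.03 over all clusters and 0.04 over expressed genes. Over all 18446 genes, each taken by its brightest cluster as in the lists, 50.1% had the higher METH mean, and 2.28% were higher and 2.72% lower at that p. Sox9, a transcription factor of astrocytes, differed by -0.33 ± 0.15 (SE), with an unadjusted p under 0.05 in 22 of 30 other settings, and Gfap, their intermediate filament, by -0.39 ± 0.27 (SE). The summed level of the list, as the mean log2 signal of its members, was 11.31 ± 0.19 (SD, n = 6) in CT and 11.15 ± 0.16 (SD, n = 12) in METH rats, and 11.13 ± 0.17 (SD, n = 6) in yoked rats. Further genes in the named group were Sat1, the polyamine acetyltransferase (-0.30 ± 0.10 SE), Bmpr1a, a BMP receptor (-0.29 ± 0.11), Ctdsp2 (-0.29 ± 0.11), Sox8 (-0.30 ± 0.11), Trps1 (-0.20 ± 0.08), Ryk, a Wnt receptor (-0.15 ± 0.06), and Prdx6, a peroxiredoxin (-0.16 ± 0.06). Among the 29 measured antioxidant genes Prdx6 was the 1 member at an unadjusted p under 0.05. Of those 29, 22 had the higher METH mean and 7 the lower, with a median of 0.03. All 10 measured oligodendrocyte markers had the lower METH mean, with a median of -0.17 and 0 at that p. All 10 were expressed, and 66.5% of expressed genes had the higher METH mean.

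Immediate early genes, which neurons switch on within minutes of activity, mostly had lower means a month into abstinence, a day after the cue test. Of 19 members 15 were lower and 4 higher, 3 of the lower ones at an unadjusted p under 0.05 against 2.72% of all genes, and the median was -0.11. The higher METH mean was found in 50.1% of all genes and in 37.6% of clusters at or below bioB, where most members lay. Npas4, a neuronal activity-dependent transcription factor below bioB, ran from 5.68 through 6.61 to 7.26 in CT rats and from 5.38 through 5.90 to 6.40 in METH rats. All 12 METH rats lay under the CT mean, and the difference was -0.63 ± 0.20 (SE), or 1.55-fold (exact permutation p = 0.0103). Nr4a1, an orphan nuclear receptor, differed by -0.56 ± 0.21 (SE) with 11 METH rats under the CT mean (exact permutation p = 0.0242), and Egr1 by -0.37 ± 0.18 (exact permutation p = 0.0731). Egr1 had an unadjusted p under 0.05 in only 8 of 30 other settings, Nr4a1 in 26 of 29 and Npas4 in all 29. Arc, a synaptic protein, differed by -0.60 ± 0.30 (SE) and did not pass. Fos, the most widely used member, differed by -0.11 ± 0.12 (SE). Nr4a2 stood apart at 1.14 ± 0.81 (SE), with an unadjusted p of 0.173 in limma. Yoked rats differed from CT by -0.79 for Npas4, -0.58 for Nr4a1 and -0.18 for Egr1. Without the 6 arrays on which Kl, a choroid plexus gene, exceeded bioB, the median of the list was -0.03.

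The start of Nr4a1 is shown because promoters of activity-regulated genes are known to carry cyclic AMP response elements. RefSeq GRCr8 places it at chr7:134259888-134260187 on the plus strand, with capitals for the half-site TGACG on either strand.
Nr4a1: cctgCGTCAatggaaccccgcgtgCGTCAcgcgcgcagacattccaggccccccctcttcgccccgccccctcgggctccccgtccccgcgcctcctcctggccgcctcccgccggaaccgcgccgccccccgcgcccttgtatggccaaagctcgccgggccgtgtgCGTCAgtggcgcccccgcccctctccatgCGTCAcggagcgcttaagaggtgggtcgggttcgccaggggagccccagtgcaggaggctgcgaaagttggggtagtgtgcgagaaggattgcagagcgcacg
It held 4 half-sites, and 21.2% of the 33469 promoters held at least 1. The gene was chosen with its half-sites known, so the count describes this window alone. The full element TGACGTCA had 0 matches in this window and occurred in 1.83% of promoters.

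Genes of dopamine signalling mostly had lower means. Of 26 members 22 were lower, and the median was -0.18. Among all genes 50.1% had the higher METH mean, and among expressed genes 66.5% did. An unadjusted p under 0.05 was reached by 2 of the lower members, where 2.72% of all genes were lower at that p. Among the 17 expressed members 16 were lower, with a median of -0.26. Drd2, the D2 receptor, differed by -0.33 ± 0.25 (SE), Drd1, the D1 receptor, by -0.27 ± 0.31 (SE), and Ppp1r1b, which encodes the protein phosphatase inhibitor DARPP-32, by -0.29 ± 0.27 (SE). Rgs9, a regulator of D2 receptor signalling, differed by -0.38 ± 0.35 (SE) and Adcy5, the striatal adenylyl cyclase, by -0.24 ± 0.28 (SE). The 2 members that passed were Maob, a monoamine oxidase found in astrocytes (-0.35 ± 0.15 SE, exact permutation p = 0.0462), and Slc18a2, the vesicular monoamine transporter (-0.13 ± 0.05 SE). Slc18a2 had a CT mean of 4.96, far below bioB, and its neurons have their cell bodies in the midbrain. Maob had an unadjusted p under 0.05 in 20 of 30 other settings and Slc18a2 in 23 of 29. Drd2 was 15.46 ± 0.46 (SD, n = 6) in CT and 15.13 ± 0.60 (SD, n = 12) in METH rats, so both groups expressed the striatal receptor strongly. Yoked rats lay 0.34 below CT in the median of the list, -0.69 for Drd2. Without the 6 arrays with Kl above bioB the median was -0.03.

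Markers of the 2 kinds of medium spiny neuron had medians near 0. Of 9 D1-cell markers 7 were lower and of 8 D2-cell markers 5, where 50.1% of all genes had the higher METH mean. Their medians were -0.06 and -0.09, and these medians became 0.15 and 0.07 without those 6 arrays. Pdyn, the dynorphin precursor of D1 cells, was the 1 marker at an unadjusted p under 0.05, with the higher METH mean (0.41 ± 0.19 SE, exact permutation p = 0.068), and it passed in 14 of 30 other settings. Penk, the enkephalin precursor of D2 cells, differed by 0.07 ± 0.17 (SE).

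Receptor genes for the main fast transmitters mostly had higher means. Among all genes 50.1% had the higher METH mean, and among expressed genes 66.5% did. Of 15 GABA-A receptor subunits 14 were higher, including all 10 expressed ones, with a median of 0.27 and 0 at an unadjusted p under 0.05. Gabrb2, the beta 2 subunit, ran from 12.83 to 14.64 in CT and from 13.61 to 14.63 in METH rats. The highest value was thus a CT array, replicate 1, and the difference was 0.40 ± 0.23 (SE). The median difference of the list from CT was 0.51 in SR, 0.08 in SS and 0.12 in yoked rats, all set against the same CT arrays. Of 17 measured ionotropic glutamate receptors 14 were higher, with a median of 0.14. Gria3, an AMPA receptor subunit, differed by 0.23 ± 0.13 (SE), whereas Grin2c, an NMDA receptor subunit below bioB, was lower at an unadjusted p under 0.05 (-0.19 ± 0.08 SE, exact permutation p = 0.0214). Of 8 metabotropic receptors 4 were higher and 4 lower, with a median of 0.01. Grm3, which astrocytes express, was lower by 0.34 ± 0.13 (SE, exact permutation p = 0.0287). It was the 1 member at an unadjusted p under 0.05, where 2.72% of all genes were lower. Grm8 differed by 0.50 ± 0.29 (SE) and did not pass.

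Dense-core vesicle proteins and neuropeptides were mixed in direction. Of 23 members 15 were higher and 8 lower, and the median was 0.10. The higher METH mean was found in 50.1% of all genes and in 66.5% of expressed genes. An unadjusted p under 0.05 was reached by 4 of the higher and 2 of the lower members, where 2.28% of all genes were higher and 2.72% lower. The 3 granins in those 4 were Chgb (0.33 ± 0.12 SE), Scg2 (0.50 ± 0.23) and Chga (0.50 ± 0.23), which help to form secretory granules, with higher values than the CT mean in 10, 11 and 11 of 12 METH rats. Their exact permutation p-values were 0.0152, 0.063 and 0.0647. Chgb passed in all 30 other settings, Scg2 in 18 and Chga in 14, with Pdyn as the other higher member. The lower 2 were Hcrt, the orexin precursor (-0.25 ± 0.08 SE), and Pomc (-0.11 ± 0.05 SE), both hypothalamic and near 5 log2 units in every group, and Pomc passed in 12 of 29 other settings. Vgf, another dense-core vesicle protein of the list, differed by -0.08 ± 0.11 (SE) and did not pass. Of 16 interneuron markers 14 were higher, with a median of 0.26 and 0 at that p, and the smallest p belonged to Gad2, a GABA-synthesizing enzyme (0.33 ± 0.18 SE), and Sst, somatostatin (0.44 ± 0.25 SE). Calb2, calretinin, had a larger difference with a wider error (0.52 ± 0.63 SE).

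All 18 measured imprinted genes, which are expressed from 1 parental copy, had higher means in METH rats, with a median of 0.28 and 0 at an unadjusted p under 0.05. The higher METH mean was found in 50.1% of all genes and in 66.5% of the expressed ones. The mean log2 signal of the list ran from 9.48 to 10.22 in CT and from 9.62 to 10.83 in METH rats, highest on CT replicate 1 among CT arrays and on SR replicates 5 and 6 among METH arrays. Mest differed by 0.49 ± 0.24 (SE), Peg3 by 0.33 ± 0.18 and Zim1 by 0.44 ± 0.24. The median difference from CT was 0.47 in SR and 0.11 in SS rats, and 0.12 in yoked rats. The median stayed between 0.18 and 0.36 in every other setting computed for it.

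**Figure D4:**
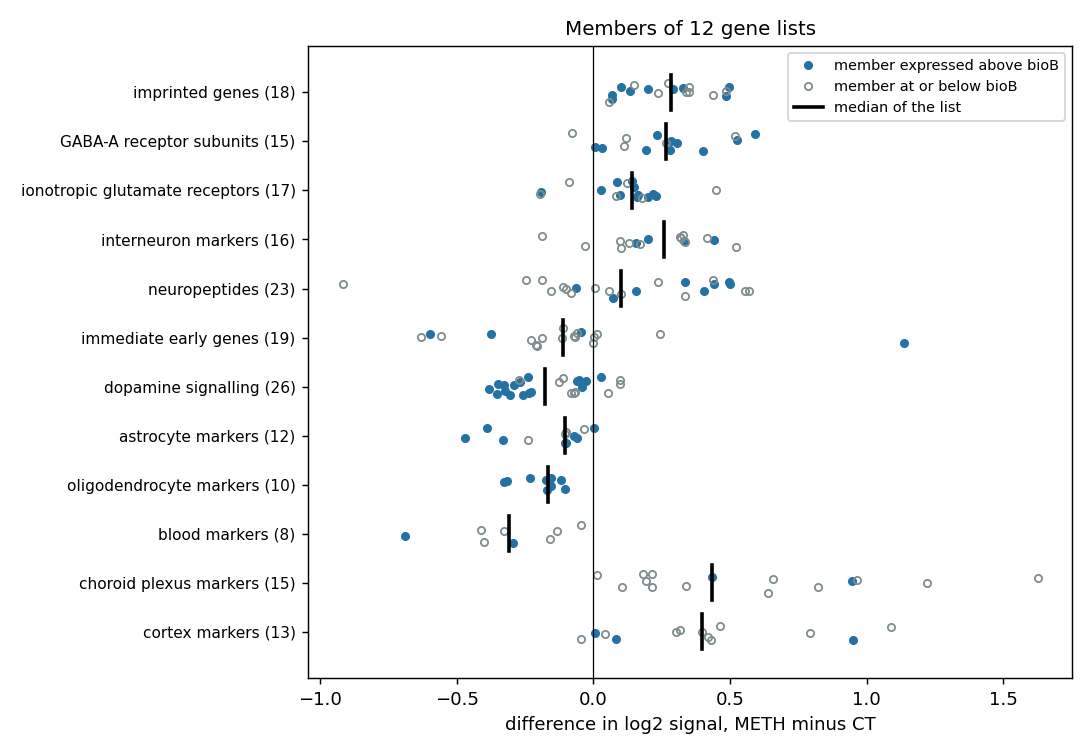
Difference in mean log2 signal between METH and CT rats (x axis) for each measured member of 12 gene lists (rows, with the number of members in brackets), filled for expressed members and open for the others, with the list median as a bar. Medians run from -0.31 for blood markers to 0.43 for choroid plexus markers, and all 18 imprinted genes lie right of 0.

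Stress pathways showed few differences at the level of single genes. Of 21 measured genes of the unfolded protein response 12 were higher and 9 lower, with a median of 0.03, and Wfs1 was the 1 member at an unadjusted p under 0.05. Over all genes 2.28% were higher and 2.72% lower at that p, and 50.1% had the higher METH mean. Of 14 heat shock genes 5 were higher and 9 lower, and 2 passed. They were Hspa4 (0.18 ± 0.06 SE, exact permutation p = 0.00318, limma adjusted p = 0.772) and the cochaperone Dnajb4 (0.24 ± 0.09 SE, exact permutation p = 0.0158, limma adjusted p = 0.791). Both exceeded the CT mean in all 12 METH rats. Among 18 clock genes Bhlhe40, a transcriptional repressor, was the 1 that passed (0.31 ± 0.11 SE), and 10 members were lower. Of 16 glucocorticoid-responsive genes 12 were lower and 0 passed, with a median of -0.06 in METH and 0.19 in yoked rats against the same CT arrays. Of 18 histone deacetylases 1 passed, Hdac8 (-0.16 ± 0.07 SE), and of 15 genes of DNA methylation 0. Of 15 neurotrophins and their receptors 0 passed, with Bdnf at 0.17 ± 0.08 (SE) and a CT mean of 4.67. The genes measured by PCR in the study, Oxt, Oxtr, Cartpt, Fmo2, Pdk4 and Ptpro, had CT means below bioB. Oxt, oxytocin, was 13.70 on SR replicate 4 and 14.52 on SR replicate 6, both above bioB, and between 4.88 and 8.98 on the other arrays compared. Its difference was 0.56 ± 1.29 (SE), and it became -0.01 without SR replicate 4 and -0.08 without SR replicate 6. None of the 6 had an unadjusted p under 0.05 in the pooled comparison. Cartpt differed by -0.15 ± 0.33 (SE), a pooled value of opposite parts: its difference from CT was 0.41 in SR rats and -0.72 in SS rats. Microglia, endothelial and oligodendrocyte precursor markers had medians of 0.03, 0.01 and -0.07, and the 6 opioid and cannabinoid receptors one of 0.02.

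Clusters without a gene name held the smallest p-values. TC0200001261.rn.1, a noncoding cluster of 2 probes on chromosome 2 from 154638488 to 154638513, ran from 5.29 through 6.05 to 6.69 in CT rats and from 2.29 through 3.66 to 5.38 in METH rats. On 11 of 12 METH arrays it was below every CT array, SS replicate 2 being the exception, and the difference was -2.29 ± 0.37 (SE, exact permutation p = 0.000108; limma adjusted p = 0.233). Yoked rats lay 1.43 lower than CT in the mean, from 3.25 to 6.75. All its values were below bioB, and its adjusted p was under 0.05 without SS replicate 2. TC0400000617.rn.1 was 1 of the 11 clusters without overlap (-0.47 ± 0.08 SE, limma adjusted p = 0.233). Its exact permutation p was 5.39e-05, the smallest the design allows. The lack of overlap by itself largely fixes that p, so it adds no separate support. Of those 11 clusters 8 were annotated as noncoding, as were 28724 of the 68842 clusters. The 2 clusters singled out here were chosen after their values were seen.

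Single arrays moved the counts strongly, CT replicate 1 most of all. Without it 157 clusters met the criterion in place of 21, 49 higher and 108 lower, and 108 expressed clusters did in place of 5. It was 64 without CT replicate 3, 46 without SR replicate 1, 42 without SS replicate 4, 34 without SS replicate 1 and 32 without CT replicate 6. The expressed count was 22 without CT replicate 3, 13 without SS replicate 3, 12 without CT replicate 5 or SR replicate 1, 11 without SS replicate 4, 9 without SS replicate 1 and 8 without CT replicate 6. The count without overlap was 79 without CT replicate 1, 49 without CT replicate 6, 21 without CT replicate 2, 20 without SR replicate 4, and 19 without CT replicate 3, 4 or 5 or SS replicate 5. The adjusted p was under 0.05 for 1 cluster without CT replicate 1 and for 1 without SS replicate 2. Of the 157 clusters 28 had 1 gene name, all 28 higher in METH rats, and on 20 of these CT replicate 1 was the highest CT array. They included Camk2d (1.01), a subunit of a calcium-dependent kinase, Pde1a (1.34), a calcium-activated phosphodiesterase, Dner (0.90), and Gda (0.84), a guanine deaminase, each as the log2 difference without that array. With all arrays these differences were 0.83, 1.08, 0.68 and 0.71, and only that of Gda had an unadjusted p under 0.05 in limma. Leaving out a CT array that is high for a gene raises its difference by itself.

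**Figure D5:**
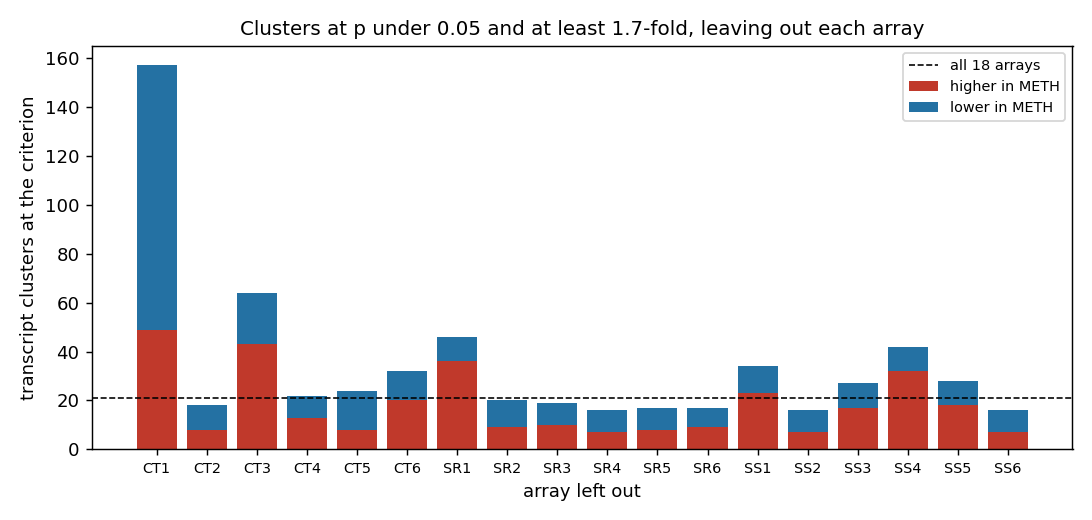
Number of transcript clusters at an unadjusted p under 0.05 and at least a 1.7-fold difference (y axis) when each of the 18 arrays was left out in turn (x axis), higher in METH rats in red and lower in blue, with the dashed line at 21 for all arrays. Leaving out CT replicate 1 gave 157, and the other 17 counts ran from 16 to 64.

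Tissue beyond the striatum was present on some arrays of both groups. Kl, a choroid plexus gene, exceeded bioB on 1 CT, 2 SR and 3 SS arrays, reaching 14.65 on CT replicate 6, and was at most 8.98 on the other arrays compared. All 15 choroid plexus markers had the higher METH mean, where 50.1% of all genes did, with a median of 0.43. Their summed level ran from 6.18 to 10.39 in CT and from 5.74 to 9.94 in METH rats. Of 13 cortex markers 12 were higher, with a median of 0.40 and a summed level from 7.05 to 9.04 in CT and from 7.47 to 9.58 in METH rats. Without the 6 arrays with Kl above bioB these medians were -0.03 and 0.02, the oligodendrocyte median was -0.36, and 39 clusters met the criterion. With both marker means as covariates, 50 clusters met the criterion and 10 of the 21 remained. All 8 measured blood markers were lower in METH rats, with a median of -0.31 and a summed level from 7.53 to 8.98 in CT and from 7.58 to 8.32 in METH rats. Thalamus, hypothalamus and ependymal markers had medians of -0.01, -0.07 and -0.10. The mean log2 signal of the hypothalamus markers was 6.05 on SR replicate 4, 6.13 on SR replicate 6, 5.85 on CT replicate 1 and 5.76 on CT replicate 3, and from 4.92 to 5.47 on the other arrays compared. The list of 13 holds Oxt, at 13.70 and 14.52 on SR replicates 4 and 6, and Pmch, at 10.20 and 7.77 on CT replicates 1 and 3. The raised means on those arrays therefore rest largely on single members. The part of these tissues in the other results was not tested.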

How the data were processed

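The deposited log2 signals were made by the authors with Affymetrix Expression Console (version and summarization method not given in the sources used here) from Rat Transcriptome Array scans. The deposited tables also hold group means, fold changes and p-values of the authors' own comparisons, which were not used. The value table has 70580 rows. Of these, 1738 control rows were left out, and 19455 clusters carry 1 gene of the RefSeq GRCr8 table, for 18446 genes. Depth does not apply to arrays, and the number of rats limits the precision.

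METH and CT arrays were compared with limma 3.58.1 in R 4.3.3 (lmFit, eBayes), with Benjamini-Hochberg adjustment over 68842 clusters. Exact 2-sided permutation tests used all 18564 regroupings. The genes given one were mostly named for a small p, or chosen after their values were seen, on these same arrays. Their permutation p therefore adds no separate support. SR was set against SS in a fit of 3 group means. Named genes were the 12 higher and 12 lower expressed clusters, and 6 each below bioB with at least 1.7-fold, of smallest p with 1 gene symbol, those without overlap, and up to 4 members of each of 31 lists. Some genes that these rules name are not reported here. In a list, the brightest cluster stood for a gene. The comparison and the lists were chosen with earlier results of these data known. Nothing in the labels says more of the rats than 1 array each, so p-values measure the spread between these samples. Fits were tested on simulated data. Same-numbered arrays did not pair (18 pairs, correlations of deviations from -0.557 to 0.31), so no block was used. Figures used Python 3.11.15 and matplotlib 3.10.9.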

Additional observations from a re-analysis of the deposited data

Results flagged for a closer look

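In 16 of 282 groups of 6 arrays tested over the 94 named clusters, 1 array lay apart from the other 5 by Dixon's ratio, which chance alone gives in about 5% of groups. SR replicate 1 was the lowest SR array for Tmem178b (9.67), Grm8 (6.72) and Chga (9.96), and the highest for Grin2c (8.79). SR replicate 5 was the lowest for Per3 (9.40) and Fmo2 (5.26), and the highest for Hspa4 (13.01) and Dnajb4 (11.01). SS replicate 4 was the lowest SS array for Mlc1 (11.45) and Sox9 (10.42), SS replicate 1 the highest for Maob (10.69), and SS replicate 6 the highest for Oxt (8.90). Among CT arrays, replicate 6 was the highest for Kl (14.65) and Fmo2 (7.32), replicate 4 the highest for Pomc (4.83), and replicate 3 the lowest for Zbtb16 (7.36). No named cluster had an SR and SS difference at an adjusted p under 0.05, and none had all SR arrays on one side of the CT mean with all SS arrays on the other.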

How the results depend on the processing

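Most values kept their direction: of the 94 named clusters, none that had an unadjusted p under 0.05 changed sign in any setting tried. Those clusters lay far from 0 on the same arrays, so a change of sign was unlikely from the start. Some of the other named clusters did change sign, among them Adora2a, from -0.30 to 0.03, and Penk, from -0.07 to 0.28. The 21 clusters at the criterion became 50 with the choroid plexus and cortex means as covariates, 5 with 1 cluster per gene, 64 with a fold change of at least 1.5 and 6 with at least 2. The 5 expressed ones became 36, 1, 11 and 2 in those settings. Without the arrays with Kl above bioB, a setting added after seeing the data, the counts were 39, 17 expressed, 189 without overlap and 1 at an adjusted p under 0.05. Centring on the median of all clusters, also added after seeing the data, left 7 without overlap, and it moved the median difference from -0.03 to 0.01. Leaving out single arrays gave 16 to 157 clusters at the criterion, 4 to 108 expressed ones, 0 to 1 at an adjusted p under 0.05, and 12 to 79 without overlap. The replicate block kept 0 clusters at an adjusted p under 0.05 and 21 at the criterion, of which 16 were among the main 21, with 7 expressed ones in place of 5. Only 1 of 18 arrays correlated best with its own number, so the numbers are only names here. The cause of these changes was not tested. Signals near background limit what can be said of genes below bioB.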
